A study of Mus musculus with 48 samples.

Results

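Hypothalamus and frontal cortex were compared within the same Per3 5/5 mice after sleep deprivation, with the stress-related transcription factors, the receptors and the transporters as the genes of interest. The arrays were those that the labels assign to frontal cortex or hypothalamus of the line named Boxhill, which is the Per3 5/5 line, and each hypothalamus was paired with the cortex of its own mouse. This gave 8 hypothalamus and 8 frontal cortex arrays from 8 mice, 16 of the 48 arrays of the series. Per3 5/5 mice are knock-in mice in which exon 18 of the clock gene Per3 was replaced by the human exon with 5 copies of the variable repeat, on a C57BL/6 background, and the line was bred from homozygous pairs after the Cre recombinase had been removed. The other 32 arrays came from 8 Per3 4/4 mice, whose knock-in exon has 4 repeats, and 8 wild-type (WT) mice, and they were used here only to test whether the region difference changed with genotype. All mice were young adults, and each had been kept awake for the 12 h of light before the brain was placed in RNAlater and dissected. No rested mouse was measured, so the standing difference between the regions and the response to lost sleep cannot be told apart in any value below. Both samples are blocks of tissue, and fewer cells of a type and less RNA per cell cannot be told apart either.

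The frontal cortex is a layered sheet of mostly glutamatergic projection neurons, whereas the hypothalamus is a mosaic of small nuclei whose neurons release peptides and regulate hormones, feeding, temperature, arousal and the stress axis. Prolonged waking and other stressors engage immediate early transcription factors, which follow neuronal activity within minutes, the unfolded protein and integrated stress responses, and glucocorticoid signalling through the hypothalamus, pituitary and adrenal gland. Which of these a tissue can use depends on the receptors that read the signals and on the transporters that load, clear and exchange transmitters, ions and fuels.

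Levels are given as log2 processed signal minus log2 of the 75th percentile of the same array, so that 0 is a spot as bright as that percentile and 1 unit is a 2-fold step. A level describes 1 probe and was not set against the level of another gene. Differences are hypothalamus minus frontal cortex on the same log2 scale, as the mean of the paired values ± SE over 8 mice, and a gene is called higher or lower in hypothalamus where the paired limma test gave an adjusted p under 0.05. In each list the leading called genes were taken by rule, and others were added for their role with their values in view. The 75th percentile itself was 908 ± 139 intensity units in frontal cortex (SD, n = 8) and 1048 ± 113 in hypothalamus (SD, n = 8), no spot was saturated, and 28694 to 31308 probes per array were well above background. Arrays of the same region correlated at 0.968 to 0.989 and arrays of different regions at 0.945 to 0.969 across probes. The first principal component took 57.2% of the variance.

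The labelled regions were checked against marker genes. The summed linear signal of the 19 projection neuron markers with a value on every array, in multiples of the 75th percentile, was 331 to 461 in frontal cortex and 43.9 to 56.3 in hypothalamus, and that of 19 hypothalamus markers was 4.84 to 12.1 against 314 to 558. Each set of 8 arrays thus matched its label. Some arrays also held signal of neighbouring tissue. The frontal cortex of mouse 5 had a pituitary marker sum of 11.1, where the other cortices had 1.25 to 1.92, and the frontal cortices of mice 4 and 7 had striatal sums of 73.0 and 62.4, where the other cortices had 21.8 to 37.2. In hypothalamus, the pituitary sum was 74.2 in mouse 8 and 6.51 to 30.0 in the others. Thalamus markers were higher in hypothalamus for 11 of 13 genes and lower for 0 (median 2.33), with sums of 6.90 to 7.80 in frontal cortex and 35.2 to 62.3 in hypothalamus. Markers of ependyma and tanycytes were higher for 11 of 14 and lower for 3 (median 2.19), although their sums were 37.6 to 52.4 in frontal cortex and 22.4 to 41.0 in hypothalamus. Their part in the receptor and transporter values was not tested. The counts of called genes in the lists, other than those of the whole solute carrier and ABC families, were therefore also taken without mice 4, 5 and 7, a choice made after these values were seen. Without them 12953 probes were called, 6654 higher and 6299 lower, where all 8 mice gave 17146, 8619 higher and 8527 lower. The list counts without these mice have no gene share beside them and are read against that fall.

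Most of the transcriptome differed between the regions. Of 29995 probes tested, 17146 were called (57.2%), 8619 higher and 8527 lower in hypothalamus. With 1 probe per gene, 15562 genes were tested, of which 5117 were higher (32.9%) and 4344 lower (27.9%) in hypothalamus. A difference of at least 1 log2 unit as well was reached by 1405 genes upward (9.03%) and 1217 downward (7.82%), and the ranges of the 8 hypothalami and the 8 cortices did not overlap in 3959 genes (25.4%). The median difference over all genes was 0.027 and the median of its size was 0.35. These shares are the background against which the counts in each gene list are read.

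The immediate early transcription factors were the list with the clearest shift among the stress factors, toward frontal cortex. Of 25 tested, 18 were lower in hypothalamus (72.0%, where 27.9% of all genes were), 14 of them by at least 1 log2 unit, 3 were higher, and the median difference was -1.23. The ranges of the regions did not overlap in 16 of the 25, where 25.4% of all genes did not. The Egr zinc finger genes, which activity induces within minutes, held the largest values. Egr1 (probe A_51_P367866) ranged from 3.42 to 4.91 (median 3.64) in frontal cortex and -0.11 to 0.69 (median 0.44) in hypothalamus. The lowest cortex stood far above the highest hypothalamus, and the paired difference was -3.47 ± 0.15 (adjusted p = 6.0e-08). Egr2 ranged from -0.48 to 1.66 (median 0.17) in frontal cortex and -4.24 to -3.40 (median -4.11) in hypothalamus, a difference of -4.19 ± 0.22 (adjusted p = 2.4e-07). The regions were again apart in every mouse. Egr4 gave 2.16 to 3.17 (median 2.50) in frontal cortex and -1.96 to -1.17 (median -1.38) in hypothalamus, also without overlap, and differed by -4.02 ± 0.10 (adjusted p = 4.2e-09). Egr3, which is also in the list of cortical neuron markers, was well above background on 8 of 8 cortex arrays and on 0 of 8 hypothalamus arrays, so its hypothalamic level is only a bound and it was at least 5.10-fold lower there (adjusted p = 3.8e-06).

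Most other factors driven by neuronal activity were lower in hypothalamus as well. Npas4, a factor switched on by calcium entry during depolarisation, ranged from -2.88 to -2.34 (median -2.62) in frontal cortex and -5.37 to -4.45 (median -4.80) in hypothalamus. No hypothalamus reached the lowest cortex, and the difference was -2.17 ± 0.10 (adjusted p = 1.3e-07). Nr4a1, an orphan nuclear receptor induced by activity and hormones, ranged from 4.37 to 5.62 (median 4.59) in frontal cortex and 1.93 to 2.55 (median 2.26) in hypothalamus, with a difference of -2.49 ± 0.13 (adjusted p = 2.2e-07). Its regions did not overlap either, and the highest cortex was that of mouse 8, as for Egr1 and Fos. Klf10 (-3.10), Ier5 (-2.77), the AP-1 subunits Junb (-2.12) and Fosb (-1.99), and Srf (-1.26), which binds the serum response element of many of these genes, were called lower without overlap. Fos, a common marker of recent activity, differed less. It ranged from -1.03 to 0.52 (median -0.49) in frontal cortex and -1.53 to -0.82 (median -1.09) in hypothalamus, the regions overlapped, 7 of 8 mice had the lower value in hypothalamus, and the difference was -0.60 ± 0.18 (adjusted p = 0.015). The Fos call was lost in the mice of scan day 1 (-0.37, adjusted p = 0.14) and without mice 4, 5 and 7 (-0.63, adjusted p = 0.097). Jun differed by -0.27 ± 0.063 (adjusted p = 0.0048) with overlapping regions, a call lost without the pairing (adjusted p = 0.052), on either scan day (adjusted p = 0.13 and 0.051) and without mice 4, 5 and 7 (adjusted p = 0.054), and Nr4a2, which is abundant in deep cortical layers and in dopamine neurons, by -0.10 ± 0.22 (adjusted p = 0.72), which did not pass the test.

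The factors higher in hypothalamus were Maff, Atf3 and Fosl1. Maff, a small Maf protein that pairs with other basic leucine zipper factors, ranged from -4.03 to -3.01 (median -3.45) in frontal cortex and -2.82 to -2.44 (median -2.60) in hypothalamus, without overlap, and differed by 0.83 ± 0.11 (adjusted p = 1.1e-04). Atf3, which is induced by many stressors, overlapped between regions and differed by 0.67 ± 0.15 (adjusted p = 0.004), and Fosl1, a Fos relative, by 0.63 ± 0.18 (adjusted p = 0.014). Neither was called after normexp background correction, in which Atf3 differed by 0.17 (adjusted p = 0.12) and Fosl1 by 0.0014 (adjusted p = 0.99), and Fosl1 was not called in the mice of scan day 1 (0.22, adjusted p = 0.21). Cortical projection neuron markers moved with this list, with 18 of 20 lower in hypothalamus, 0 higher and sums that did not overlap. Their part in the result was not tested. Without mice 4, 5 and 7 the immediate early list held 16 lower and 3 higher, and its median was -1.22.

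**Figure D1:**
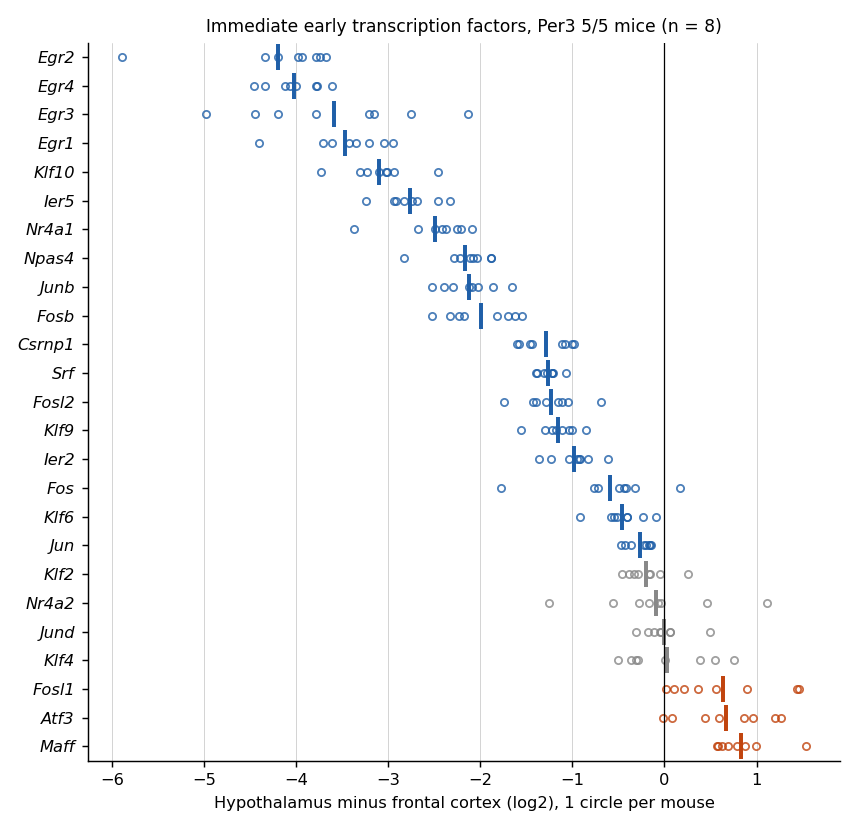
Hypothalamus minus frontal cortex in log2 units for the 25 immediate early transcription factors tested, with 1 circle per Per3 5/5 mouse and a bar at the mean of 8 mice. Blue genes were called lower and orange genes higher in hypothalamus, grey genes were not called. The Egr genes lie below -2 in every mouse, Fos has values on both sides of 0, and Maff is above 0 in 8 of 8 mice.

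Activity reaches many immediate early genes through the cAMP response element, which binds CREB, and the serum response element, whose core is the CArG box. The promoter sequences from RefSeq (build GRCm38.p6) were searched in the 250 bases before each start. The core TGACG of the cAMP response element was sought on either strand, where a full palindromic element holds the core on both strands. The CArG box was sought only in its strict form, CC and GG with 6 bases of A or T between them. The core was in 15 of the 20 immediate early factors with a promoter in that table (75%), where 27.8% of the tested genes and 19.8% of all genes with a promoter had it. It was in 9 of the 11 factors lower by at least 1 log2 unit (81.8%) and in 6 of the other 9 (66.7%). The CArG box was in 2 of 20 (Egr2 and Srf), against 1.504% of tested genes. A box of another form or further from the start would be missed, and Egr1 and Egr3 had no promoter to search. The count therefore does not show that the other factors lack the box. Windows of 4 genes are shown, from Egr2, which had the largest region difference of the list, to Fos, which had a small one. Capitals mark the core on either strand and, in Egr2, also the CArG box (the longest capital run). Npas4 is at chr19:4989972-4990221 on the minus strand, Nr4a1 at chr15:101266596-101266845, Egr2 at chr10:67537619-67537868 (1 of 5 windows in the table) and Fos at chr12:85473640-85473889, all on the plus strand.
Npas4: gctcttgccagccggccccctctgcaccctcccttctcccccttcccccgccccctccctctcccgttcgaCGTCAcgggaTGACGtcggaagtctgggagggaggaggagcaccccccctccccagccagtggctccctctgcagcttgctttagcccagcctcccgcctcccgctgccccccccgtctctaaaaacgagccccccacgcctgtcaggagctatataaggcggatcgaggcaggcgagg
Nr4a1: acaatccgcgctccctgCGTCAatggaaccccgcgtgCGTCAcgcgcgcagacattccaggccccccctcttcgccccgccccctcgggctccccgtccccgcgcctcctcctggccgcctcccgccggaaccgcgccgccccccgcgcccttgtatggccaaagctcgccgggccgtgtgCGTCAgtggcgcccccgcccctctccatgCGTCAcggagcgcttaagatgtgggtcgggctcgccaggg
Egr2: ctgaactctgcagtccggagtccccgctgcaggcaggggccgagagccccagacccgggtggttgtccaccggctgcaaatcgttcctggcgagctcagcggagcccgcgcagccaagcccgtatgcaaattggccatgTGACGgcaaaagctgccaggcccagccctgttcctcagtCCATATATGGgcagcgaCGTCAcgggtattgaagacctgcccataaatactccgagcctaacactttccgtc
Fos: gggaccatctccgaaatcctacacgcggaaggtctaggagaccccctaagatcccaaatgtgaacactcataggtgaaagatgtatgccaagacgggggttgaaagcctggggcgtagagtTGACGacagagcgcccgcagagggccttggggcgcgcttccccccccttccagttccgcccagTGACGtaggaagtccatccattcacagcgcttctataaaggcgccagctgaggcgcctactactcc
Nr4a1 held 4 cores and the other windows 2 each. Fos, with the smallest region difference of the 4, thus had as many as Npas4 and Egr2. The Egr2 window was taken from its 5 for having the most matches, while the other genes had 1 window each, so its count is not strictly comparable. These letter matches describe the windows and do not show that a factor was bound.

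With all 8 mice, the transcription factors of the unfolded protein and integrated stress responses leaned the same way by smaller steps. Of 16 tested, 8 were lower (50%) and 3 higher (18.75%) in hypothalamus, where 27.9% and 32.9% of all genes were. The median was -0.18. With only mice 1, 2, 3, 6 and 8 the list held 6 lower and 3 higher, and an unpaired test gave 5 and 3. It held 3 lower and 2 higher on scan day 1 (median -0.19), and 6 and 2 on scan day 3 (median -0.18). Atf6, the membrane-bound sensor that is cut free when unfolded protein builds up in the endoplasmic reticulum, ranged from 0.91 to 1.45 (median 1.105) in frontal cortex and -0.65 to -0.45 (median -0.50) in hypothalamus, with no overlap and a difference of -1.64 ± 0.071 (adjusted p = 6.4e-08). Its relative Atf6b was lower by a smaller step (-0.74), and Creb3l1, another membrane-bound factor, was lower with overlapping regions (-1.34 ± 0.21, adjusted p = 3.8e-04). Atf4, through which the integrated stress response raises amino acid genes, ranged from 0.79 to 1.85 (median 1.15) in frontal cortex and 0.56 to 1.099 (median 0.88) in hypothalamus. The regions overlapped although hypothalamus was lower in 8 of 8 mice, and the difference was -0.36 ± 0.089 (adjusted p = 0.0062, or 0.056 without the pairing by mouse, 0.062 on scan day 1 and 0.083 on scan day 3). Creb3l2, which acts in cells that secrete much protein, went the other way, from -3.85 to -2.91 (median -3.38) in frontal cortex and -2.88 to -2.03 (median -2.64) in hypothalamus (0.82 ± 0.11, adjusted p = 1.2e-04), with Creb3l4 (0.54) and Atf5 (0.33). The Creb3l4 call was lost after normexp correction (0.16, adjusted p = 0.081) and on scan day 3 (0.34, adjusted p = 0.11), and the Atf5 call on scan day 1 (0.23, adjusted p = 0.15). Xbp1, which is spliced to its active form during the unfolded protein response, did not pass the test (0.21 ± 0.11, adjusted p = 0.14).

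The heat shock, hypoxia and oxidative stress factors showed no common direction. Of 28 tested, 8 were higher (28.6%) and 10 lower (35.7%), where 32.9% and 27.9% of all genes were, with a median of -0.022. Hif1a, the oxygen-regulated factor, ranged from -0.46 to -0.046 (median -0.23) in frontal cortex and -0.093 to 0.66 (median 0.31) in hypothalamus. The ranges met at their ends, hypothalamus was higher in 8 of 8 mice, and the difference was 0.52 ± 0.092 (adjusted p = 8.2e-04, or 0.061 on scan day 3). Foxo1 (0.63), which links insulin and oxidative stress, and the heat shock factor Hsf4 (0.62) were also higher, Hsf4 not on scan day 3 (adjusted p = 0.12) or without mice 4, 5 and 7 (adjusted p = 0.066). Lower genes included Maf (-1.13), which is in the list because Maf proteins pair with oxidative stress factors, Foxo6 (-1.07) and Npas1 (-0.85). Sim2 and Sim1, which share the bHLH-PAS fold with the hypoxia factors but are known as developmental factors, were called higher. Sim2 was well above background on 1 of 8 cortex arrays and differed by 3.60 ± 0.34, or by 1.05 after normexp correction. Sim1 was not well above background in any cortex and was at least 2.89-fold higher in hypothalamus (adjusted p = 3.4e-05), and its level differed between scan days, as described with them.

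Among 23 inflammatory factors, 11 were higher (47.8%) and 6 lower (26.1%) in hypothalamus, where 32.9% and 27.9% of all genes were, and the median was 0.22. Without mice 4, 5 and 7 the counts were 7 and 4. The Stat family split. Stat5b, which carries growth hormone and prolactin signals, ranged from 0.86 to 1.59 (median 1.098) in frontal cortex and 2.31 to 2.76 (median 2.52) in hypothalamus, with a difference of 1.35 ± 0.077 (adjusted p = 3.8e-07). Stat5a (1.33) and Stat3 (0.49), the leptin and interleukin factor, were also higher, as were Nfatc2 (1.14) and Nfatc3 (0.71). Stat4, known from interleukin signalling, went from -3.11 to -2.47 (median -2.73) in frontal cortex and -5.82 to -4.49 (median -5.54) in hypothalamus, a difference of -2.69 ± 0.13 (adjusted p = 1.3e-07) with no overlap. Stat6 (-0.94), the NF-kappaB subunit Relb (-0.87) and Irf2 (-0.67) were lower. Microglial markers, which could carry part of such a list, were lower for 10 of 14 genes and higher for 0, with sums of 25.6 to 76.3 in frontal cortex and 20.6 to 54.6 in hypothalamus, and only 3 of the 14 were called without mice 4, 5 and 7, where the median was -0.52 against -0.56 with all mice. Their part in these values was not tested. Of 10 CREB family factors and coactivators, 4 were lower (40%) and 1 higher (10%), where 27.9% and 32.9% of all genes were. Without mice 4, 5 and 7 the list held 2 lower. Jdp2, a repressor of AP-1 sites, was lower by the largest step (-0.96), with the coactivator Crebbp (-0.76), while Creb5 was higher (1.0004). The Crebbp call was lost on scan day 3 (-0.45, adjusted p = 0.21) and without mice 4, 5 and 7 (-0.59, adjusted p = 0.087). Crem was lower by its brightest probe (-0.55), but its 6 probes were called in both directions, so its value depends on the transcript measured.

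Of 44 nuclear receptors, which include the Nr4a genes above, 13 were higher and 19 lower in hypothalamus (29.5% and 43.2%, against 32.9% and 27.9% of all genes), with a median of -0.14. The receptors for corticosteroids did not pass the test. Nr3c1, the glucocorticoid receptor (probe A_52_P138090), ranged from 1.21 to 1.86 (median 1.49) in frontal cortex and 0.998 to 1.71 (median 1.41) in hypothalamus, and Nr3c2, the mineralocorticoid receptor, from -3.47 to -2.69 (median -3.19) in frontal cortex and -3.73 to -2.88 (median -3.32) in hypothalamus. Both overlapped almost fully. The differences were -0.13 ± 0.094 (adjusted p = 0.27) and -0.15 ± 0.11 (adjusted p = 0.24), each with 5 of 8 mice lower in hypothalamus. The oestrogen receptors were higher in hypothalamus. Esr1, the alpha oestrogen receptor, ranged from -4.13 to -3.04 (median -3.81) in frontal cortex and -2.26 to -1.25 (median -1.92) in hypothalamus, with a difference of 1.91 ± 0.11 (adjusted p = 3.8e-07), and Esr2 was not well above background in any cortex and at least 1.46-fold higher in hypothalamus, a call lost after normexp correction. Nr0b1, a corepressor of steroidogenic genes present in the ventromedial hypothalamus, was likewise not well above background in any cortex, from -3.53 to -2.15 in hypothalamus (median -2.70), against -8.22 to -6.53 in frontal cortex (median -7.41), and was at least 13-fold higher (adjusted p = 2.4e-07). Nr5a2 (3.36) and Nr2f2 (2.59) were higher as well, and the retinoid X receptors Rxrg (1.01) and Rxra (0.92) by smaller steps.

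Thyroid hormone receptors had the opposite direction. Thra ranged from 4.63 to 5.15 (median 4.91) in frontal cortex and 3.32 to 3.98 (median 3.43) in hypothalamus, a difference of -1.33 ± 0.076 (adjusted p = 3.6e-07), and Thrb differed by -1.33 ± 0.093 (adjusted p = 1.4e-06). Neither overlapped between regions. Pparg, the fatty acid receptor best known from fat tissue, ranged from -0.68 to -0.11 (median -0.41) in frontal cortex and -2.59 to -2.15 (median -2.30) in hypothalamus and was also apart (-1.96 ± 0.10, adjusted p = 2.0e-07). Nr2e1 (-1.19), a factor of neural progenitors, was lower too. Nr1i3, a xenobiotic receptor, was lower in 8 of 8 mice (-1.35, adjusted p = 3.5e-04), but its levels varied widely between mice in both regions and the call was lost without the pairing (adjusted p = 0.13).

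Of 18 genes of the corticotropin and corticosteroid axis tested, 8 were higher (44.4%) and 4 lower (22.2%) in hypothalamus, where 32.9% and 27.9% of all genes were. Among the 8, 7 were higher by at least 1 log2 unit. Avp, the vasopressin precursor that drives corticotropin release together with corticotropin releasing hormone, ranged from 5.51 to 6.47 in hypothalamus (median 5.81), against -5.05 to -2.91 in frontal cortex (median -4.61), and the difference of 10.29 ± 0.25 (adjusted p = 4.0e-09) was the largest fitted value upward with all 8 mice. Its highest cortex value was that of mouse 7. Crh, the corticotropin releasing hormone gene, was not matched to a probe and was not analysed here. Ucn3, a ligand of the type 2 receptor, was not well above background in any cortex and at least 7.65-fold higher (adjusted p = 2.2e-07), whereas urocortin itself (Ucn), a ligand of both receptors, was lower (-1.98 ± 0.22, adjusted p = 4.1e-05). Pomc, the precursor of corticotropin, ranged from 1.98 to 4.86 in hypothalamus (median 4.22), against -0.50 to 2.19 in frontal cortex (median -0.055), with a difference of 3.84 ± 0.38 (adjusted p = 1.6e-05). The overlap lay between the cortex of mouse 5 (2.19, the others up to 0.060) and the hypothalamus of mouse 7 (1.98, the others 3.57 to 4.86). That cortex had the high pituitary sum, of which Pomc is itself a member. Crhr2 ranged from -2.33 to -1.37 (median -1.83) in frontal cortex and 0.57 to 1.09 (median 1.02) in hypothalamus, without overlap (2.78 ± 0.12, adjusted p = 5.4e-08).

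Crhr1, the type 1 corticotropin releasing hormone receptor, depended on 1 array. Its level was -5.10 in the frontal cortex of mouse 1 and 1.52 to 2.47 in the other 7 cortices, and it was 0.22 to 0.93 in hypothalamus. With all mice the difference was -0.55 ± 0.75 (adjusted p = 0.56), and without mouse 1 it was -1.42 (adjusted p = 4.3e-05), lower in hypothalamus in the remaining 7 mice. The same gene differed by -1.60 ± 0.24 (SD, n = 8) in Per3 4/4 and -1.34 ± 0.29 (SD, n = 8) in WT mice. Downstream of corticosteroid receptors, Sgk1, a kinase they induce, was higher in hypothalamus (0.49 ± 0.087, adjusted p = 8.3e-04), as was Tsc22d3 (0.37 ± 0.092, adjusted p = 0.0063), and Fkbp5, a chaperone that damps the glucocorticoid receptor, did not pass the test (-0.08 ± 0.11, adjusted p = 0.56). The Sgk1 call was lost on scan day 1 (adjusted p = 0.053), and that of Tsc22d3 on day 1 (adjusted p = 0.085), on day 3 (adjusted p = 0.066) and without mice 4, 5 and 7 (adjusted p = 0.067).

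The effectors of stress responses, which were chosen across pathways, were more often higher than lower with all 8 mice. There were 21 and 8 of 39 (53.8% and 20.5%), where 32.9% and 27.9% of all genes were. The median was 0.23, and these steps were small. Without mice 4, 5 and 7 the list held 12 higher and 6 lower. It held 5 higher and 5 lower on scan day 1 (median 0.25), and 8 and 5 on scan day 3 (median 0.20). Txnip, which binds thioredoxin and limits glucose uptake, ranged from -2.03 to -0.47 (median -0.86) in frontal cortex and -0.52 to 1.06 (median 0.26) in hypothalamus. Hypothalamus was higher in 8 of 8 mice although the ranges met at their ends (1.24 ± 0.15, adjusted p = 6.5e-05). Plin4 (1.18), Nqo1 (1.15), a target of the oxidative stress pathway, Gadd45g (0.90) and the cold-induced Cirbp (0.65) were higher too. Gadd45b, an activity-induced gene of DNA repair and demethylation, went the other way from its paralogue, from 0.93 to 1.46 (median 1.02) in frontal cortex and -0.58 to -0.12 (median -0.27) in hypothalamus, with no overlap (-1.40 ± 0.071, adjusted p = 1.7e-07). Cdkn1a (-1.07), the phosphatase Dusp1 (-0.84) and the cold-induced Rbm3 (-0.82) were lower, so that Gadd45b and Gadd45g, and likewise Rbm3 and Cirbp, pointed in opposite directions.

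**Figure D2:**
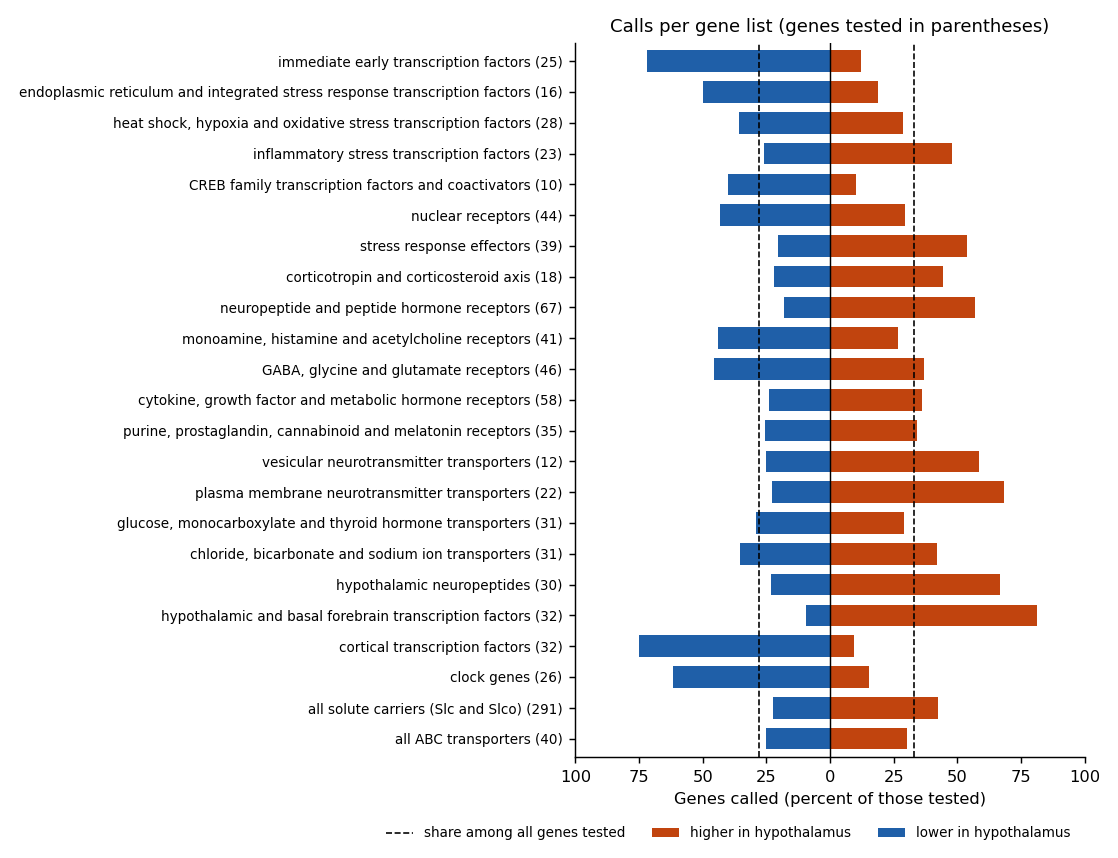
Share of the tested genes of each list that was called lower (left, blue) or higher (right, orange) in hypothalamus than in frontal cortex of 8 Per3 5/5 mice, in percent, with the number of genes tested in parentheses. Dashed lines mark the share among all 15562 genes (27.9% lower, 32.9% higher). Immediate early, cortical and clock genes extend furthest to the left, and hypothalamic factors, neuropeptides and plasma membrane transmitter transporters to the right.

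Receptors for neuropeptides and peptide hormones were the receptor class with the strongest lean toward hypothalamus. Of 67 tested, 38 were higher (56.7%) and 12 lower (17.9%), where 32.9% and 27.9% of all genes were. Among the 38, 31 were higher by at least 1 log2 unit, and the median of the list was 0.95. The regions did not overlap in 37 of the 67, where 25.4% of all genes did not. The list held 37 higher and 9 lower without mice 4, 5 and 7. Its median fell to 0.15 with 32 higher and 15 lower after the normexp background correction, whose added offset shrinks differences of dim probes. A probe bright in only 1 region could enter the test, and 8 of the 67 genes were not well above background in any cortex. With only probes well above background on all 16 arrays, 43 genes remained, 19 higher and 9 lower, with a median of 0.12. Calcr, the receptor of calcitonin and, with partner proteins, of amylin, ranged from 1.20 to 1.76 in hypothalamus (median 1.61), against -8.76 to -5.73 in frontal cortex (median -8.34). It was well above background on 1 of 8 cortex arrays, had its highest cortex value in mouse 4, and differed by 9.49 ± 0.31 (adjusted p = 1.5e-08). The size of that difference rests on dim cortex values and was 5.36 after normexp correction. Galr1, an inhibitory galanin receptor, was not well above background in any cortex, ranged from -2.56 to -1.54 in hypothalamus (median -2.18), and was at least 19.4-fold higher (adjusted p = 7.3e-08). Avpr1a, a vasopressin receptor, was well above background on 2 of 8 cortex arrays and ranged from -2.78 to -1.67 in hypothalamus (median -2.12), against -8.20 to -5.26 in frontal cortex (median -6.08). It differed by 4.45 ± 0.34 (adjusted p = 2.5e-06), or by 1.67 after normexp correction.

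The 2 cholecystokinin receptors pointed in opposite directions. Cckar was at least 36.0-fold higher in hypothalamus, being not well above background in any cortex, and Cckbr ranged from 2.89 to 3.44 (median 3.08) in frontal cortex and 0.23 to 1.01 (median 0.66) in hypothalamus, a difference of -2.48 ± 0.094 (adjusted p = 2.9e-08) with no overlap. The VIP receptors split in the same way, with Vipr2 higher (3.56 ± 0.29) and Vipr1 lower (-1.29 ± 0.15) in hypothalamus. Rxfp1, a relaxin receptor, was lower (-1.39) and well above background on 4 of 8 hypothalamus arrays. Tacr3, the neurokinin B receptor (5.37, or 2.71 after normexp correction), and Npffr1, a receptor for RFamide peptides (at least 7.09-fold), were among the largest. They were well above background on 5 of 8 and 0 of 8 cortex arrays. Other higher members, chosen for their role, were Npy2r for neuropeptide Y (2.70), Agtr1a for angiotensin (2.59), the opioid receptors Oprk1 (2.46) and Oprm1 (2.18), the orexin receptors Hcrtr2 (1.71) and Hcrtr1 (0.95), and the PACAP receptor Adcyap1r1 (1.29), whose ligand gene Adcyap1 was higher too (1.51).

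Receptors for monoamines, histamine and acetylcholine were more often lower, with 18 lower (43.9%) and 11 higher (26.8%) of 41. Among all genes these shares were 27.9% and 32.9%. The median of the list was -0.14. Htr2a, the serotonin receptor through which classical hallucinogens act, ranged from -3.98 to -3.21 (median -3.52) in frontal cortex and -6.42 to -5.10 (median -5.54) in hypothalamus, with no overlap (-2.14 ± 0.11, adjusted p = 2.3e-07). Adrb1, the beta-1 adrenergic receptor, ranged from 0.46 to 1.62 (median 0.66) in frontal cortex and -1.78 to -0.49 (median -1.42) in hypothalamus (-2.06 ± 0.14, adjusted p = 1.3e-06). Both are receptors for ascending arousal transmitters, and both were apart in 8 of 8 mice. Drd4 (-2.19) and the nicotinic subunit Chrna5 (-3.52, well above background on 1 of 8 hypothalamus arrays, or -1.13 after normexp correction) were lower as well. Other receptors of the same transmitters were higher in hypothalamus. Chrm5, a muscarinic receptor, ranged from -2.06 to -1.40 in hypothalamus (median -1.55), against -6.04 to -4.31 in frontal cortex (median -5.77), a difference of 3.87 ± 0.24 (adjusted p = 7.2e-07). The serotonin receptors Htr7 (1.76) and Htr2c (1.65), the alpha-2A adrenergic receptor Adra2a (1.47) and the nicotinic subunit Chrna3 (at least 2.05-fold, not well above background in any cortex) were called higher. Chrna4 was higher by its brightest probe (1.42), and its 2 probes were called in opposite directions. The dopamine receptors Drd1 and Drd2 belong to the striatal markers, whose sums were high in the cortices of mice 4 and 7. Drd1 differed by -1.15 ± 0.30 (adjusted p = 0.0081) with all mice and by -0.64 (adjusted p = 0.078) without mice 4, 5 and 7, and Drd2 by 1.27 ± 0.24 (adjusted p = 0.0013) with all mice and by 1.71 (adjusted p = 0.00076) without them.

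Subunits of GABA, glycine and glutamate receptors were split. Of 46, 21 were lower (45.7%) and 17 higher (37.0%), where 27.9% and 32.9% of all genes were, with a median of -0.090. Several NMDA and AMPA receptor subunits were lower in hypothalamus. Grin2b ranged from 2.24 to 3.33 (median 2.54) in frontal cortex and -0.65 to 1.104 (median -0.17) in hypothalamus, with no overlap (-2.44 ± 0.17, adjusted p = 1.4e-06), and Grin2a (-2.75), Gria3 (-1.97), Gria2 (-1.02) and the obligatory NMDA subunit Grin1 (-0.63) were lower with it. Gabrd, the delta subunit of extrasynaptic GABA-A receptors, ranged from 3.51 to 4.26 (median 3.79) in frontal cortex and -2.26 to 1.87 (median 0.085) in hypothalamus. The cortices lay close together and the hypothalami spread over more than 4 log2 units, so that the difference of -3.86 ± 0.51 (adjusted p = 1.1e-04) carries a wide error. Gabrq, the theta subunit, was the reverse, from -2.90 to -1.19 in hypothalamus (median -1.30), against -7.30 to -4.86 in frontal cortex (median -6.58), well above background on 3 of 8 cortex arrays (4.56 ± 0.43, adjusted p = 1.2e-05). Glra1, the alpha-1 glycine receptor subunit, was not well above background in any cortex and at least 10.3-fold higher in hypothalamus (adjusted p = 7.0e-08), as was Glra4 (at least 2.30-fold). Grin3b (1.85) and Gabrg1 (1.74) were higher without overlap.

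Receptors for cytokines, growth factors and metabolic hormones were near the shares of all genes (32.9% higher and 27.9% lower). Of 58, 21 were higher (36.2%) and 14 lower (24.1%), with a median of 0.089. Without mice 4, 5 and 7 the counts were 15 and 8. Ngfr, the low-affinity neurotrophin receptor that marks basal forebrain cholinergic neurons, ranged from -3.41 to -1.103 (median -2.93) in frontal cortex and -0.65 to 1.09 (median 0.06) in hypothalamus, and the highest cortex was that of mouse 4 (2.77 ± 0.28, adjusted p = 1.8e-05). Ret was not well above background in any cortex and at least 2.05-fold higher. Receptors of circulating hormones were higher, with the prolactin receptor Prlr (2.07), which is also a choroid plexus marker, the growth hormone receptor Ghr (1.83) and the leptin receptor Lepr (1.03). The calls of Ret and Lepr were lost after normexp correction. Epor, the erythropoietin receptor, ranged from 0.86 to 1.38 (median 1.27) in frontal cortex and -0.96 to -0.47 (median -0.61) in hypothalamus, with no overlap (-1.84 ± 0.10, adjusted p = 2.1e-07), and Gfra2 (-1.20) and Met (-0.72) were lower too. The BDNF receptor Ntrk2 was higher by its brightest probe (0.58), with its 2 probes called in opposite directions, and the interleukin-1 receptor Il1r1 did not pass the test (-0.17 ± 0.11, adjusted p = 0.20).

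Of 35 receptors for purines, prostaglandins, cannabinoids and melatonin, 12 were higher (34.3%) and 9 lower (25.7%), near the shares of all genes (32.9% and 27.9%). Their median was -0.0093, and 10 and 4 were called without mice 4, 5 and 7. Adora1, an inhibitory adenosine receptor that caffeine blocks, ranged from 3.74 to 4.08 (median 3.85) in frontal cortex and 2.45 to 3.04 (median 2.68) in hypothalamus, a difference of -1.17 ± 0.088 (adjusted p = 2.2e-06) with no overlap. Adora2a, its striatal counterpart, did not pass the test (-0.10 ± 0.10, adjusted p = 0.42). P2ry1, an ADP receptor, was the largest in the list, from -2.80 to -1.44 (median -2.21) in frontal cortex and 0.48 to 0.75 (median 0.64) in hypothalamus (2.83 ± 0.15, adjusted p = 2.1e-07). Lpar2 (2.78), Ptger2 (2.28) and P2rx5 (2.21) were higher. Lpar2 and P2rx5 were well above background on 1 and 2 of 8 cortex arrays and differed by 0.51 and 0.52 after normexp correction. The prostaglandin receptor Ptger3 (-1.27), the cannabinoid receptor Cnr1 (-0.86) and the microglial ADP receptors P2ry12 (-0.999) and P2ry13 (-0.88) were lower. P2ry12 is itself 1 of the microglial markers that were lower in hypothalamus. Without mice 4, 5 and 7 neither was called (adjusted p = 0.051 for P2ry12 and 0.14 for P2ry13), and the P2ry13 call was also lost without the pairing (adjusted p = 0.063) and on scan day 3 (adjusted p = 0.058).

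**Figure D3:**
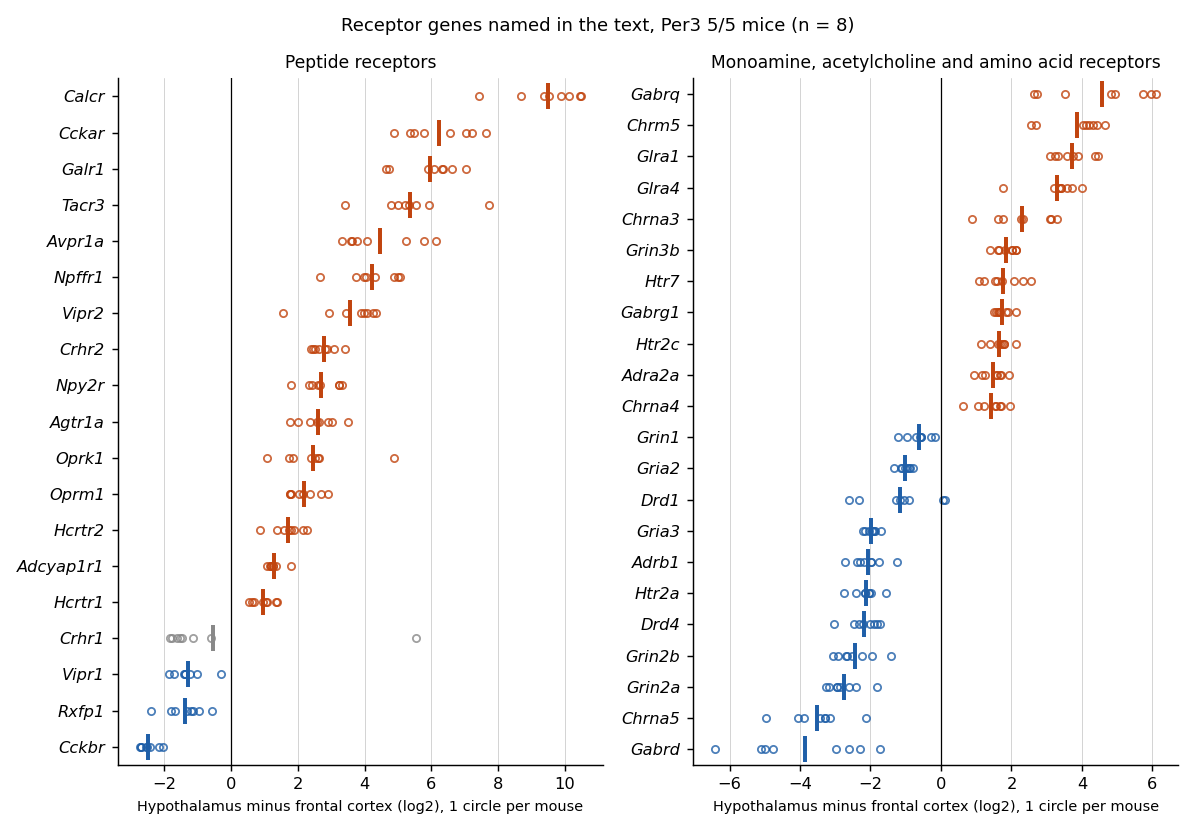
Hypothalamus minus frontal cortex in log2 units for receptor genes named in the text, with 1 circle per Per3 5/5 mouse and a bar at the mean of 8 mice, orange for higher, blue for lower and grey for not called in hypothalamus. Calcr lies above 7 in every mouse and Cckbr below -2, and the grey Crhr1 row shows 1 mouse above 5 while the other 7 lie below 0.

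Transporters that load synaptic vesicles gave some of the largest differences. Of 12 tested, 7 were higher (58.3%) and 3 lower (25%) in hypothalamus, where 32.9% and 27.9% of all genes were. The median was 0.69. The regions did not overlap in 7 of the 12, where 25.4% of all genes did not. Slc17a7, the vesicular glutamate transporter of cortical projection neurons (probe A_51_P137913), ranged from 2.09 to 3.32 (median 2.76) in frontal cortex and -8.02 to -3.07 (median -4.21) in hypothalamus. The cortices lay close together while the hypothalami were spread widely, with the lowest value in mouse 1, and 7 of 8 hypothalami were well above background. The difference was -7.42 ± 0.57 (adjusted p = 2.6e-06), and on scan day 3 it was -6.45. Slc17a6, the glutamate transporter of subcortical neurons (probe A_51_P174996), ranged from -0.37 to 0.46 (median 0.22) in frontal cortex and 4.27 to 4.73 (median 4.48) in hypothalamus, with a difference of 4.29 ± 0.10 (adjusted p = 3.4e-09) and a spread under 1 unit in either region. Slc17a8, a glutamate carrier of scattered neuron groups, ranged from -2.52 to -2.10 (median -2.38) in frontal cortex and 0.34 to 1.18 (median 0.57) in hypothalamus (2.97 ± 0.079, adjusted p = 5.5e-09). Slc17a7 belongs to the cortical and Slc17a6 to the hypothalamic marker list, so these 2 values are also part of the check of the regions.

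The carriers of inhibitory transmitters and monoamines were higher in hypothalamus. Slc32a1, the vesicular GABA and glycine transporter, ranged from 4.62 to 5.24 (median 4.80) in frontal cortex and 5.45 to 6.14 (median 5.90) in hypothalamus, and the small difference of 1.02 ± 0.06 (adjusted p = 4.7e-07) separated the regions fully. Of 18 inhibitory neuron markers, 10 were higher and 6 lower in hypothalamus. Their sums went the other way, with 288 to 364 in frontal cortex and 180 to 209 in hypothalamus. Slc18a2, which loads monoamines, ranged from -2.11 to -1.53 (median -1.98) in frontal cortex and 0.65 to 1.74 (median 1.22) in hypothalamus (3.12 ± 0.11, adjusted p = 2.0e-08). Slc10a4, a vesicle protein of cholinergic and monoaminergic neurons, overlapped through the cortex of mouse 4, and the cortices of mice 4 and 7 held 0.10 and -2.10 where the other cortices held -5.53 to -3.47 (4.35 ± 0.54, adjusted p = 7.9e-05). Slc30a3, the transporter that loads zinc into glutamatergic vesicles, was lower, from -0.27 to 1.31 (median 0.77) in frontal cortex and -5.21 to -3.68 (median -4.71) in hypothalamus (-5.15 ± 0.20, adjusted p = 3.8e-08), as was the vesicle protein Sv2b (-3.01).

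Transporters that clear transmitters from the extracellular space were mostly higher, with 15 higher (68.2%) and 5 lower (22.7%) of 22. Among all genes these shares were 32.9% and 27.9%. The median of the list was 0.52. Slc6a3, the dopamine transporter, ranged from -1.24 to 2.49 in hypothalamus (median 0.28), against -5.05 to -3.04 in frontal cortex (median -4.56), with the highest cortex in mouse 4 and a spread of more than 3 units among hypothalami (4.93 ± 0.41, adjusted p = 4.5e-06). The noradrenaline (Slc6a2) and serotonin (Slc6a4) transporters, which are made by hindbrain neurons, were below the filter. Slc6a11, a GABA transporter of astrocytes, ranged from 0.05 to 0.81 (median 0.31) in frontal cortex and 2.66 to 2.99 (median 2.88) in hypothalamus, with no overlap (2.45 ± 0.10, adjusted p = 3.7e-08). The glycine transporter Slc6a9 (1.80), the betaine and GABA transporter Slc6a12 (2.30), the glutamate transporter Slc1a6 (1.44) and the choline transporter Slc5a7 (1.62) were higher. Slc5a7 overlapped between regions and was higher in 7 of 8 mice. Its difference was 0.84 after normexp correction, and its call was lost on scan day 1 (1.82, adjusted p = 0.060).

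The main glutamate transporters of astrocytes did not move together. Slc1a2, which clears most synaptic glutamate, ranged from 6.13 to 7.25 (median 6.72) in frontal cortex and 5.18 to 6.19 (median 5.62) in hypothalamus. The highest hypothalamus passed the lowest cortex, but every mouse was lower in hypothalamus and the difference was -1.04 ± 0.12 (adjusted p = 5.1e-05). Slc1a3 differed by -0.02 ± 0.093 (adjusted p = 0.87), which did not pass the test. Of 19 astrocyte markers, Slc1a2 was the 1 called lower while 15 were higher (9 without mice 4, 5 and 7), and their sums were 387 to 494 in frontal cortex and 435 to 547 in hypothalamus. The neuronal glutamate transporter Slc1a1 (-0.65), the creatine transporter Slc6a8 (-0.82) and the vesicular amino acid carrier Slc6a17 (-0.78) were lower too.

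Carriers of glucose, monocarboxylates and thyroid hormone were balanced, with 9 higher and 9 lower of 31 (29.0% each) and a median of -0.13. These shares were near those of all genes (32.9% and 27.9%). Slco1c1, a thyroxine carrier of the blood-brain barrier and astrocytes, ranged from 1.099 to 1.90 (median 1.56) in frontal cortex and -0.16 to 0.18 (median 0.025) in hypothalamus, with no overlap (-1.47 ± 0.08, adjusted p = 2.7e-07), and Slc7a8 (-1.27), an amino acid carrier that also takes up thyroid hormone, was lower as well. Of 16 endothelial and mural markers, which include Slco1c1, 3 were lower (1 without mice 4, 5 and 7) and 0 higher, with a median of -0.12. Among fuels, the neuronal monocarboxylate carrier Slc16a7 (-1.33) and the neuronal glucose transporter Slc2a3 (-0.47) were lower, and the barrier glucose transporter Slc2a1 did not pass the test (0.10 ± 0.13, adjusted p = 0.50). Slc2a12, a glucose transporter related to the insulin-regulated form, ranged from -3.56 to -2.42 (median -2.84) in frontal cortex and -1.64 to -0.72 (median -1.20) in hypothalamus, with no overlap (1.67 ± 0.14, adjusted p = 5.2e-06), and the insulin-regulated transporter Slc2a4 (1.31) was higher with it. Slc16a11 (0.94) and Slco4a1 (0.70) were higher and Slc16a14 (-0.94) was lower.

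Of 31 ion transporters, 13 were higher (41.9%) and 11 lower (35.5%), where 32.9% and 27.9% of all genes were, with a median of -0.14. Slc26a4, the anion exchanger pendrin, ranged from 0.55 to 1.43 (median 0.76) in frontal cortex and -3.49 to -2.10 (median -3.27) in hypothalamus, with no overlap (-3.87 ± 0.17, adjusted p = 7.3e-08). Lower genes included the sodium and calcium exchangers Slc8a2 (-1.98) and Slc24a2 (-1.17). Slc8a3 (1.22), the bicarbonate carrier Slc4a4 (1.07) and the chloride carriers Slc12a7 (1.25) and Slc12a8 (0.92) were higher. The chloride balance that sets the sign of GABA responses rests on Slc12a5, which extrudes chloride, and Slc12a2, which takes it up. Slc12a5 did not pass the test (-0.20 ± 0.11, adjusted p = 0.17), and Slc12a2 was higher by 0.60 ± 0.17 (adjusted p = 0.013) with overlapping regions. The Slc12a2 call was lost without the pairing (adjusted p = 0.25), with the mouse as a random block (adjusted p = 0.072), on scan day 1 (adjusted p = 0.089) and on scan day 3 (adjusted p = 0.065). Over the whole solute carrier family, 123 of 291 genes were higher (42.3%) and 65 lower (22.3%), with a median of 0.15. Among ABC transporters 12 of 40 were higher (30%) and 10 lower (25%), with a median of 0.054. The ABC shares were near those of all genes (32.9% and 27.9%). Oligodendrocyte markers, which mark white matter, were higher in hypothalamus for 18 of 19 genes, with sums of 92.3 to 222 in frontal cortex and 272 to 339 in hypothalamus, and choroid plexus markers for 10 of 16, with sums of 0.98 to 1.71 and 5.59 to 7.65. Meningeal markers were higher for 8 of 13 and for 2 without mice 4, 5 and 7, with medians of 0.61 and 0.62. Their part in the transporter values was not tested.

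**Figure D4:**
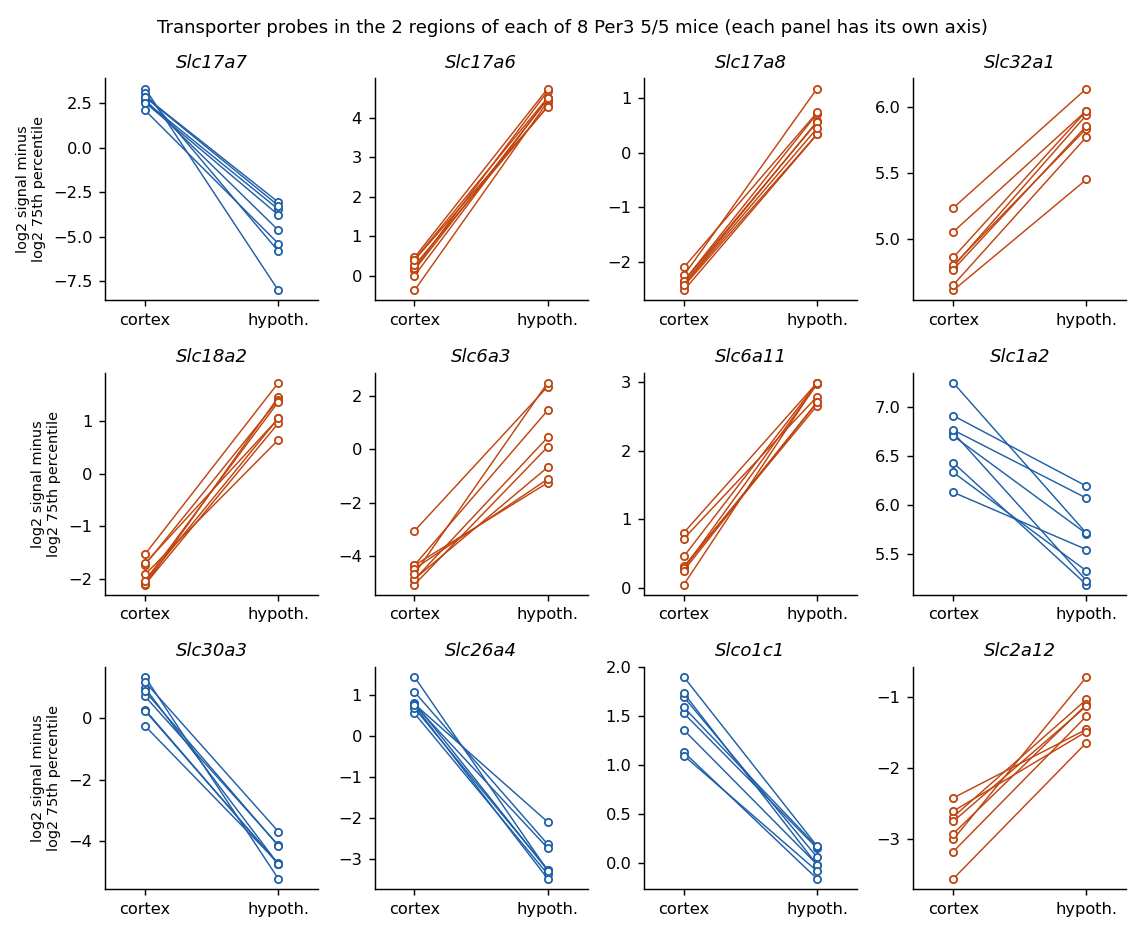
Levels of 12 transporter probes in log2 units relative to the 75th percentile of each array, where each line joins the frontal cortex and the hypothalamus of 1 of 8 Per3 5/5 mice and each panel has its own axis. Lines fall for Slc17a7, Slc1a2, Slc30a3, Slc26a4 and Slco1c1 (blue) and climb for the other 7 (orange), in all 8 mice.

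Per3 itself, the gene altered in these mice, was slightly lower in hypothalamus. Its probe ranged from -2.92 to -2.42 (median -2.83) in frontal cortex and -3.40 to -2.50 (median -3.18) in hypothalamus, the regions overlapped, and the difference was -0.38 ± 0.10 (adjusted p = 0.0092), lower in 8 of 8 mice. The difference was -0.61 (adjusted p = 0.0081) in the 4 mice of scan day 1 and -0.14 (adjusted p = 0.34) in the 4 mice of scan day 3. Where the probe lies relative to the exchanged exon was not determined, so the value is not a check of the genotype. Homer1, a synaptic scaffold gene whose short form is a known marker of sleep need, ranged from 1.35 to 1.93 (median 1.71) in frontal cortex and -1.23 to -0.76 (median -1.16) in hypothalamus, a difference of -2.76 ± 0.078 (adjusted p = 6.8e-09) with no overlap. This is the brightest of 3 probes, which were not called in opposite directions. The paper reported opposite changes for probes at the opposite ends of Homer1 between knock-in and WT mice. Which transcripts the probe reads was not determined, so the value is not a measure of the short form.

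Scan day was the technical batch that the file headers give for these arrays, with mice 1 to 4 scanned on day 1 and mice 5 to 8 on day 3 and both regions of a mouse on the same slide. The region difference changed between the days for 1 of 29995 probes (0.00333%), while 1618 had an unadjusted p under 0.05. That probe was Sim1, whose hypothalamic level was -6.22 to -5.86 on day 1 and -3.78 to -3.45 on day 3 while no cortex was well above background. The region difference was 2.33 on day 1 and 4.68 on day 3, a change of 2.35 (adjusted p = 0.0015), without overlap between the days. In Per3 4/4 mice the same probe gave 1.64 to 2.62 on day 1 and 3.24 to 4.77 on day 2, so the low values of day 1 were found in both knock-in lines. No WT mouse was scanned on that day.

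Few probes passed a test of whether the region difference changed with genotype. Against WT, 3 of 31228 probes were called (0.00961%), with 1943 at an unadjusted p under 0.05. Against Per3 4/4, 0 were called (0%) in the limma fit, with 1196 at an unadjusted p under 0.05 and a smallest adjusted p of 0.69. The 3 probes against WT were Nr0b1, the predicted gene Gm9758 and the unnamed probe A_52_P876147, each with an adjusted p of 0.029, and none was well above background in any of the 24 cortices. Nr0b1 differed between regions by 4.75 ± 0.82 (SD, n = 8) in Per3 5/5, 5.36 ± 0.71 (SD, n = 8) in Per3 4/4 and 6.68 ± 0.34 (SD, n = 8) in WT mice. The 8 values of Per3 5/5 (3.67 to 6.08) lay below those of WT (6.16 to 7.05). Its hypothalamic level alone, which does not involve the dim cortex values, was -3.53 to -2.15 in Per3 5/5 and -1.84 to -1.07 in WT, also without overlap. Within scan day 3, the day that both genotypes share, the difference was 4.29 in 4 Per3 5/5 mice (3.67 to 5.26) and 6.70 in 3 WT mice (6.16 to 7.05), and with scan day as a block Nr0b1 was still called (-2.35, adjusted p = 0.035). It was not called after quantile normalization (-1.74, adjusted p = 0.18).

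For Gm9758 the region difference was 0.073 ± 1.20 (SD, n = 8) in Per3 5/5, 1.40 ± 0.90 (SD, n = 8) in Per3 4/4 and 3.06 ± 0.94 (SD, n = 8) in WT mice, but only 10 of 24 hypothalami were well above background, and the call was lost with scan day as a block (adjusted p = 0.15). For A_52_P876147 it was 4.27 ± 0.32 (SD, n = 8), 4.21 ± 0.42 (SD, n = 8) and 5.34 ± 0.31 (SD, n = 8), with an adjusted p of 0.12 under that block. Its hypothalamic level alone was -4.74 to -3.99 (median -4.29) in Per3 5/5 and -3.99 to -3.35 (median -3.71) in WT, ranges that met at their ends, and the cortex medians, below background, were -8.57 and -9.05. Both genotype contrasts share the Per3 5/5 mice, and a contrast that misses the threshold does not show equal values. Egr1 differed by -3.47, -3.59 and -3.26 in Per3 5/5, Per3 4/4 and WT, Slc17a7 by -7.42, -7.46 and -7.74, and Calcr by 9.49, 9.95 and 8.90. Npas4 gave -2.17, -3.10 and -2.63, and its contrast with Per3 4/4 had an unadjusted p of 0.00054 and did not pass after adjustment over all probes.

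**Figure D5:**
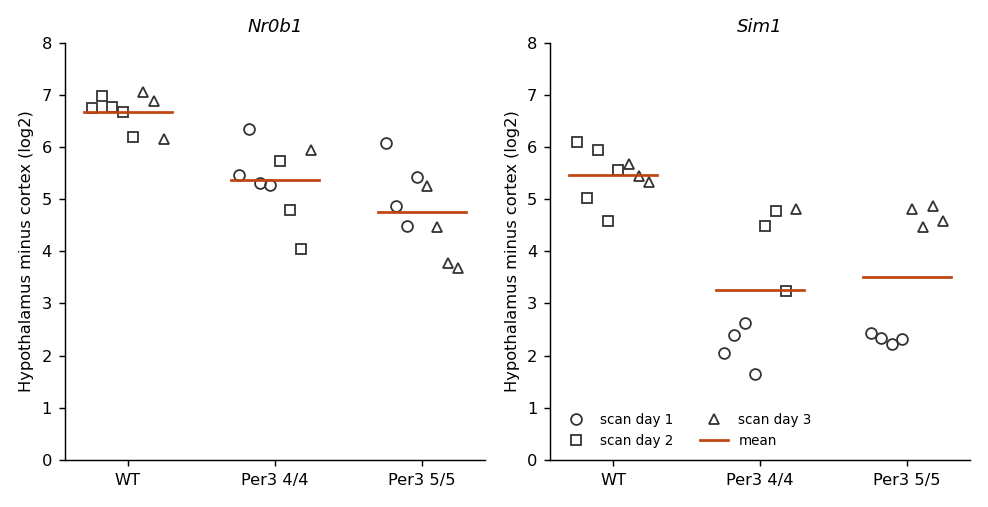
Region difference (hypothalamus minus frontal cortex, log2) of Nr0b1 and Sim1 in 8 mice of each genotype, with the scan day as the symbol and an orange bar at the mean. Per3 5/5 mice lie below all WT mice for Nr0b1, and for Sim1 the mice of scan day 1 (circles) lie below the mice of the other days in both knock-in lines.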

How the data were processed

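RNA of frontal cortex and hypothalamus was measured on Agilent whole mouse genome arrays with 1 colour, 1 array per sample. Per the file headers, the authors scanned the slides and Feature Extraction 10.7.1.1 gave the deposited processed intensity, background-subtracted and detrended within the array, with probes annotated to mm9. Here log2 intensity was shifted by the 75th percentile of non-control spots, flagged outlier spots were left out, and spots of a probe were averaged. The deposited log2 values of the series table, which the authors centred per probe within each region (100% within 0.05 of the region-centred scanner values), carry no region difference and were not used further.

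Probes that the scanner software called well above background in 6 or more of the 8 samples of either region were tested with limma 3.58.1 in R 4.3.3, with mouse as a block, two-sided, and Benjamini-Hochberg adjustment over all probes. The labels give the mouse number, and deviations of the 2 regions of a mouse correlated at 0.28 to 0.72 (up to 0.70 between different mice, and 2 of 8 mice correlated best with their own other region). The region difference per mouse was compared between scan days and genotypes in the same way. A gene took its brightest tested probe, and 27668 of 41174 probes (67.2%) had a symbol through RefSeq (GRCm38.p6). A probe not well above background on any array of a region gave only a bound ("at least"), against the lowest signal among probes well above background. The number of arrays limits the precision. The fits were tested on simulated data.

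Gene lists were described by counts and medians, without set tests. The lists and genes were chosen with earlier results of these data known. Named genes are up to 4 called genes per list and direction, 5 per direction over all genes, those called by day or genotype, and a fixed set (Slc17a7, Slc17a6, Slc32a1, Nr3c1, Nr3c2, Crh, Crhr1, Crhr2, Fos, Npas4, Atf4, Hif1a, Per3 and Homer1), and others were added for their role after their values were seen. Some genes that this rule names are not reported here. Alternatives changed the block, scaling, background correction, filter, outlier flags, test, scan day and mice.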

Additional observations from a re-analysis of the deposited data

Results flagged for a closer look

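Levels of 57 genes in each region and the sums of 14 marker lists were checked for a single array far from the other 7, by the gap to the nearest array as a share of the whole range. Of 142 groups, 19 held such an array, where chance gives about 1 in 20. In frontal cortex the activity genes were extreme in mouse 8 (Egr1 0.531, Nr4a1 0.655), and Maff (0.526) and Crhr1 (0.875) in mouse 1. The cortex of mouse 4 stood apart for Calcr (0.585), Ngfr (0.585), Slc6a3 (0.637) and the choroid plexus sum (0.565), that of mouse 5 for Pomc (0.791) and the pituitary sum (0.933), and that of mouse 7 for Avp (0.642). In hypothalamus the extreme arrays were mouse 5 for Crhr2 (0.605), mouse 3 for Stat4 (0.617) and Avp (0.526), mouse 1 for Ngfr (0.546), mouse 6 for Homer1 (0.628), mouse 7 for Pomc (0.551), and mouse 8 for the pituitary (0.653) and blood (0.626) sums.

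The region difference itself differed between groups for 4 probes by a test of that difference. Against WT it was smaller in Per3 5/5 by -1.93 for Nr0b1, by -2.98 for Gm9758 and by -1.07 for A_52_P876147, and between scan days it was larger on day 3 by 2.35 for Sim1. None of the 4 was well above background in any of these cortices, and Gm9758 was well above background in 10 of 24 hypothalami. The cortex medians of Per3 5/5 and WT were -7.41 and -8.15 for Nr0b1 and -8.57 and -9.05 for A_52_P876147, so part of each difference lay in values below background.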

How the results depend on the processing

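The count of 17146 called probes stayed within 1.5 times under every alternative, from 11962 in the mice of scan day 3 alone to 18136 without a filter, and every probe called both ways kept its direction. Leaving out 1 mouse at a time gave 15635 to 17404. The replicate block, here the mouse, raised the count from 13827, and a random block gave 17137. The share of calls that were higher fell from 50.3% to 41.8% under normexp. Of 194 named genes, 166 kept direction and call under every alternative, and no called gene changed sign. Of 182 called genes, 62 moved by more than 1.5 times under some setting.

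Reversals occurred in genes that were not called. Nr3c2 was 0.057 in the mice of scan day 3 and Crhr1 0.43 in those of day 1. Nr4a2 ran from -0.27 to 0.069 when a mouse was left out, positive without mouse 7, and was 0.14 without mice 4, 5 and 7. Slc1a3 was 0.11 with quantile normalization, 0.028 with normexp, 0.096 on scan day 1, -0.10 to 0.024 when a mouse was left out, positive without mouse 5 (0.024) or mouse 8 (0.00052), and 0.054 without mice 4, 5 and 7.

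The scan day count of 1 became 8 with normexp and 2 with quantile normalization, and ranged from 1 to 2 when a mouse was left out. The count against WT of 3 became 35 with normexp, 0 with quantile normalization and 1 with the replicate number as a block, which names no shared mouse across genotypes. In that block fit Nr0b1, Gm9758 and A_52_P876147 each had an adjusted p of 0.053. The cause was not tested. The count against Per3 4/4 was 0 in every fit.

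Normexp used the median spot signal, since the scanner files used here hold no mean signal. That choice and the fit without mice 4, 5 and 7 were made after seeing the data. Signal over background limits the dim genes, for which only bounds or offset-dependent differences were obtained.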

Other observations

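Genes that define the regions gave some of the largest differences of all. Most of those described here stand outside the stress, receptor and transporter lists. Avp, Calcr and Slc17a7, described above, were among the largest too. Of 30 hypothalamic neuropeptide genes tested, 20 were higher in hypothalamus (66.7%), each by at least 1 log2 unit, and 7 were lower (23.3%). Among all genes 32.9% were higher and 27.9% lower. The median of the list was 3.26. Pmch, the melanin-concentrating hormone precursor of the lateral hypothalamus, ranged from 5.27 to 6.29 in hypothalamus (median 5.74), against -5.01 to -2.12 in frontal cortex (median -3.88), and Hcrt, the orexin precursor whose loss causes narcolepsy, ranged from 6.21 to 7.36 in hypothalamus (median 6.88), against -3.27 to -1.47 in frontal cortex (median -2.84). Both were apart by more than 7 log2 units in every mouse, with differences of 9.68 ± 0.33 and 9.59 ± 0.25. Oxt, the oxytocin precursor, differed by 9.10 ± 0.22. Penk, the enkephalin precursor that is abundant in striatum, did not pass the test with all mice (0.62 ± 0.25, adjusted p = 0.055), and without mice 4, 5 and 7 it was higher in hypothalamus by 1.08 (adjusted p = 0.0042).

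Of 32 hypothalamic and basal forebrain transcription factors, 26 were higher (81.25%, where 32.9% of all genes were), with a median of 3.44. Of 32 cortical factors 24 were lower (75%, where 27.9% of all genes were), with a median of -2.13. Lhx5 and Foxb1, factors of the mammillary region, were not well above background in any cortex and were at least 161-fold and 135-fold higher in hypothalamus. Neurod6 (-6.49 ± 0.15) and Neurod2 (-6.02 ± 0.11), factors of cortical projection neurons, were lower without overlap. Lhx8, a factor of basal forebrain cholinergic neurons, overlapped through the cortex of mouse 4, and the cortices of mice 4 and 7 held -1.71 and -3.52 where the others held -8.85 to -6.70 (5.50 ± 0.72). Of 26 clock genes, 16 were lower (61.5%) and 4 higher (15.4%) in hypothalamus, where 27.9% and 32.9% of all genes were, with a median of -0.40. Npas2, a partner of BMAL1 in the forebrain clock, was lower by the largest step (-2.25 ± 0.091), and Per1 by a smaller one (-0.68 ± 0.08). Among 18 genes that the study discussed, a list taken from its text and not independent of these data, 8 were higher (44.4%) and 7 lower (38.9%). Among all genes these shares were 32.9% and 27.9%. The prostaglandin synthase Ptgs2 (-4.91 ± 0.19) led this list downward. Tnfrsf25, a death-domain receptor, was lower as well (-2.88 ± 0.15), and Slc23a3, an orphan member of the ascorbate carrier family, differed by -5.33 ± 0.23. Over all genes, the largest values with both regions well above background on at least 6 arrays each also included Asb4 (6.99 ± 0.15), a gene of hypothalamic neurons, upward, and 9130024F11Rik (-5.75 ± 0.16) and Psrc1 (-5.72 ± 0.17) downward. C730002L08Rik was not well above background in any hypothalamus and was at least 42.7-fold lower there, and Dtl, which was well above background on 1 of 8 hypothalamus arrays, differed by -6.45 ± 0.22.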
